A study of Rattus norvegicus with 6 samples.

Results

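Expression of 5 genes of macrophage lipid handling was followed in bone marrow-derived macrophages of rats with and without the cytochrome P450 gene Cyp2j4. They are Pparg (ENSRNOG00000008839), Abca1 (ENSRNOG00000018126), Apoe (ENSRNOG00000018454), Lpl (ENSRNOG00000012181) and Fabp4 (ENSRNOG00000010805), 5 of the 29516 genes in the count table. They were listed by Ensembl ID, but the list was made with earlier results of these data known. All 5 passed the filter on low counts that left 11645 genes. The symbols came with the list of IDs. The count table holds IDs alone and the RefSeq gene table used here lists no Ensembl IDs, so neither the pairing of ID and symbol nor the cell type by its markers was checked.

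Both groups were Wistar-Kyoto (WKY) rats, and the macrophages were grown in culture from marrow. One group was wild type (WKY control, 3 libraries) and the other lacked Cyp2j4 (WKY KO, Cyp2j4-/-, 3 libraries). No drug, lipid load or other stimulus is named for either group, and the method of the knockout and the age of the rats are not given in the sources used. Cyp2j4 itself was not analysed here for want of an ID, so the genotype labels were not checked against it. Whether each library came from its own animal or culture is not stated, and the p-values then rest only on how far libraries of 1 genotype differ, which may be technical. The libraries held 27248491 to 33916549 gene counts in wild type and 21590429 to 23923666 in knockout, and knockout replicate 2 stood apart from the other knockout libraries over the whole transcriptome. The Spearman correlation of log2 CPM over all genes tested was 0.994 between knockout replicates 1 and 3, and 0.983 and 0.985 between knockout replicate 2 and these. Some libraries were closer to 1 of the other genotype. Knockout replicate 2 was at 0.993 with wild type replicate 1, and knockout replicate 1 at 0.995 with wild type replicate 3. Each result is also given without knockout replicate 2 where that changes the call.

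Pparg encodes PPAR-gamma, a nuclear receptor that pairs with RXR and is switched on by fatty acids and their oxidised derivatives. Cyp2j4 belongs to the epoxygenases, which turn arachidonic acid into epoxyeicosatrienoic acids, lipid mediators that have been described as PPAR-gamma ligands. In macrophages PPAR-gamma promotes lipid uptake and storage, Lpl and Fabp4 are classical target genes, and Abca1 and Apoe, which serve cholesterol efflux, are induced through the oxysterol receptor LXR. The comparison of both genotypes addresses whether this set differs when the epoxygenase is missing.

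None of the 5 genes passed the test between genotypes, and Pparg was the 1 gene whose genotypes did not overlap, beside 17.2% of all genes tested. Its mean level was 27.0% lower in knockout, from 8.31 to 6.07 CPM (counts per 1000000 gene counts). Mean Apoe was 1.35 times and mean Abca1 1.16 times as high in knockout as in wild type, with overlapping libraries. Lpl and Fabp4 means were 0.892 and 1.04 times those of wild type. At an adjusted p under 0.05, 0 of the 5 were called by edgeR's quasi-likelihood test, by DESeq2 or by limma-voom. Of the 11645 genes left by the filter, edgeR called 0.120% and limma-voom 0.12%. DESeq2 was run without that filter and called 1.2% of 16319 genes, and edgeR without a filter called 0.344% of 17135. At an unadjusted p under 0.05 the edgeR fit held 2 of the 5, Pparg and Abca1, beside 7.65% of all genes tested. Over 14 other settings of scaling, filter, test or libraries, Pparg was under 0.05 unadjusted in 10 and Abca1 in 8. Apoe was under it in some of them, as given below. With libraries scaled by their totals, the edgeR quasi-likelihood unadjusted p of Abca1 was 0.115.

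The gene starts of Pparg and Abca1 are shown first, since these are the 2 genes with the lowest p-values. Pparg has more than 1 start in RefSeq, and whether the counted gene model covers each of them was not checked. Abca1 carries a known nuclear receptor element. RefSeq (build GRCr8) lists 2 starts for Pparg that are far apart on the plus strand of chromosome 4, and the 250 bases before each are given, 5′ to 3′. Capitals mark exact matches, on either strand, to the GC box GGGCGG, to CCAAT and to the AP-1 site TGANTCA.
Pparg upstream start, chr4:150096808-150097057, plus strand: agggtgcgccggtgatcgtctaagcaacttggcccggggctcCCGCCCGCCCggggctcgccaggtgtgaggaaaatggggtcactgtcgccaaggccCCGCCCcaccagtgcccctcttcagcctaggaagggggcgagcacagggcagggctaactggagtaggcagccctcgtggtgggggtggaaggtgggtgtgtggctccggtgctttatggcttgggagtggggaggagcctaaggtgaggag
Pparg downstream start, chr4:150154522-150154771, plus strand: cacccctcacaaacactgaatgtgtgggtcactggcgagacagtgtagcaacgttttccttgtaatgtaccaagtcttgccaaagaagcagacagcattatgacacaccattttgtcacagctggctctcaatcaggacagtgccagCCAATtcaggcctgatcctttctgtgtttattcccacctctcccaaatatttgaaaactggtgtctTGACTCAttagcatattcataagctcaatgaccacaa
The upstream window has 67.2% G and C and 3 GC boxes, the first 2 of which overlap. The downstream window has 44.8% G and C, with 1 CCAAT and 1 AP-1 match, beside a median of 51.2% G and C over all 33469 windows of the table. GGGCGG was found in 30.5%, CCAAT in 34.0% and TGANTCA in 6.34% of all windows of this length. Counts are per gene here, so the level from each start was not analysed.

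The 250 bases before the Abca1 start, on the minus strand of chromosome 5 in the same build, hold an E-box, a TATA box and a degenerate DR4 element, the kind of site that LXR and RXR bind together. These 3 are in capitals. An exact GC box, GGGCGG, at positions -165 to -160 from the start is left in lower case.
Abca1, chr5:72596474-72596723, minus strand: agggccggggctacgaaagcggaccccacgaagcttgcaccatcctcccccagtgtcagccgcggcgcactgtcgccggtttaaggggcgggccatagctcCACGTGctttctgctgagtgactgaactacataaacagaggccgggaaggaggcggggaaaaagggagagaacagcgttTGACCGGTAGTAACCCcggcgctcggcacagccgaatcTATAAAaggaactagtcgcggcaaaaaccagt
The DR4 match, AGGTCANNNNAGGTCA with up to 3 mismatches on either strand, lies at positions -70 to -55 from the start. A match this loose was found in 18.6% of all windows and an exact one in 0.00299%. The E-box searched, CACGTG, was in 5.59% of all windows. The TATA box searched, spelled TATAAA, was in 12.9% of them. Neither Pparg window holds the half-site AGGTCA, which was in 14.1% of all windows. These matches describe the letters alone. Apoe has 3 starts in the table, not shown here, and Lpl and Fabp4 were not matched in it.

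Pparg, the receptor of the group, had 283, 242 and 256 counts in wild type replicates 1 to 3, or 8.51, 8.88 and 7.55 CPM. In knockout replicates 1 to 3 it had 124, 131 and 154 counts, or 5.74, 5.48 and 6.99 CPM. All knockout libraries were below all wild-type libraries, with the narrowest gap between wild type replicate 3 and knockout replicate 3. For those 2 libraries the 95% intervals from counting alone (exact Poisson) overlapped, at 6.65 to 8.53 CPM and 5.93 to 8.18 CPM. The means were 8.31 ± 0.688 CPM and 6.07 ± 0.808 CPM (SD, n = 3 each). The fitted log2 fold change, knockout over wild type, was -0.40 ± 0.14 (SE), with a 95% interval from -0.72 to -0.09. This difference did not pass the test (edgeR quasi-likelihood, unadjusted p = 0.0186, Benjamini-Hochberg adjusted p = 0.484 over 11645 genes). The exact two-sided permutation p was 0.1, the smallest that 3 libraries against 3 can give.

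Genes whose knockout libraries all lay below the wild-type libraries, as for Pparg, made up 11.9% of all genes tested, and 5.31% lay entirely above. With TMM-scaled library sizes these shares were 7.45% and 7.54%, and Pparg was still among the lower ones. The lowest adjusted p for Pparg over 14 other settings was 0.229, without knockout replicate 2, and the log2 fold change lay between -0.50 and -0.34. In cell populations measured in bulk, fewer cells that express a gene and less of its RNA per cell cannot be told apart.

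**Figure D1:**
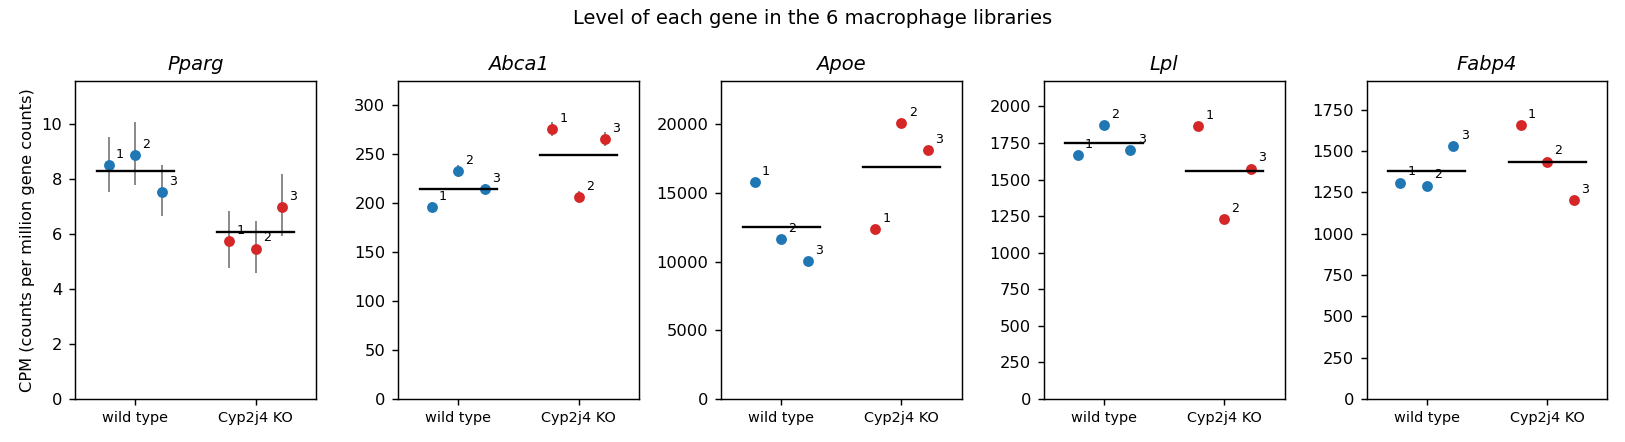
Level of each gene in every library, in CPM on a linear axis from 0; points are libraries, numbers their replicates, black lines group means, grey bars 95% exact Poisson intervals of the count (smaller than the points for the higher counts). Pparg is the 1 panel in which the groups do not overlap, and in Abca1 knockout replicate 2 lies among the wild-type libraries.

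Abca1, the membrane pump that loads cholesterol and phospholipid onto apolipoproteins, was at 196, 233 and 214 CPM in wild type replicates 1 to 3. It was at 275, 206 and 265 CPM in knockout replicates 1 to 3. Knockout replicates 1 and 3 lay above all wild-type libraries, and knockout replicate 2 lay within the wild-type range. The group means were 214 ± 18.5 CPM and 249 ± 37.2 CPM (SD, n = 3 each). The log2 fold change was 0.26 ± 0.10 (SE), with a 95% interval from 0.04 to 0.49, and it did not pass the test (edgeR quasi-likelihood adjusted p = 0.570, unadjusted p = 0.0274; exact permutation p = 0.3). Abca1 was the 1 gene of the 5 whose call turned on a single library. Without knockout replicate 2 its log2 fold change was 0.35 and it was called (edgeR quasi-likelihood adjusted p = 0.0307), in a fit that called 2.11% of all genes tested. Over the 14 other settings its adjusted p ran from 0.0307 to 0.999.

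Apoe, the apolipoprotein that macrophages secrete and that accepts cholesterol leaving the cell, was at 15799, 11654 and 10068 CPM in wild type replicates 1 to 3. In knockout replicates 1 to 3 it was at 12392, 20090 and 18115 CPM. Knockout replicates 2 and 3 were above every wild-type library, while knockout replicate 1 was below wild type replicate 1. The means were 12507 ± 2959 CPM and 16866 ± 3998 CPM (SD, n = 3 each), a difference larger than either SD, with overlapping libraries. The log2 fold change was 0.49 ± 0.25 (SE), with a 95% interval from -0.10 to 1.07 (edgeR quasi-likelihood adjusted p = 0.732; exact permutation p = 0.2). Leaving out 1 library moved the log2 fold change between 0.30 (without knockout replicate 2) and 0.72 (without wild type replicate 1), and none of these fits called it. With all libraries the DESeq2 unadjusted p was 0.0349 (adjusted p = 0.791). The edgeR unadjusted p was 0.0148 without knockout replicate 1 (adjusted p = 0.324) and 0.0218 without wild type replicate 1 (adjusted p = 0.678). On a linear scale the interval with all libraries runs from 0.936-fold to 2.09-fold.

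Apoe varied more between libraries of 1 genotype than the other 4 genes did. Its pooled SD within genotypes was 0.40 on the log2 scale, of TMM-scaled CPM plus 0.1, against 0.13 to 0.18 for the others. A larger SD was found in 9.99% of all genes tested and in 1.15% of the 1657 genes with at least 100 mean CPM. Its counts per library, 267540 to 525447, leave almost no counting error, so this spread lies between the libraries.

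Lpl, the lipase that frees fatty acids from triglyceride-rich lipoproteins, was at 1667, 1874 and 1700 CPM in wild type replicates 1 to 3. Knockout replicates 1 to 3 were at 1867, 1231 and 1575 CPM. The wild-type libraries were close together, and the knockout libraries ran from just under the highest of them to below the lowest. The means were 1747 ± 111 CPM and 1558 ± 319 CPM (SD, n = 3 each). The log2 fold change was -0.12 ± 0.12 (SE; 95% interval -0.41 to 0.16; edgeR quasi-likelihood adjusted p = 0.902). Without knockout replicate 2 it was -0.01 and without knockout replicate 1 it was -0.24, so its size turned on which knockout library was left out.

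Fabp4, a cytosolic fatty acid carrier and a widely used readout of PPAR-gamma activity, was at 1310, 1292 and 1530 CPM in wild type replicates 1 to 3. It was at 1657, 1436 and 1202 CPM in knockout replicates 1 to 3. The knockout libraries enclosed the wild-type range on both sides. The means were 1378 ± 133 CPM and 1432 ± 227 CPM (SD, n = 3 each), and the log2 fold change was 0.10 ± 0.12 (SE; 95% interval -0.18 to 0.39; edgeR quasi-likelihood adjusted p = 0.917). With 1 library left out it ran from 0.02 (without knockout replicate 1) to 0.23 (without knockout replicate 3). The intervals of the fold for Lpl and Fabp4 were 0.755 to 1.12 and 0.881 to 1.31. Folds within those bounds are not excluded by these data, and the p-values do not show that the levels were equal. The order of the 3 knockout libraries for Fabp4 differed from that for Pparg, which was highest where Fabp4 was lowest, in knockout replicate 3.

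**Figure D2:**
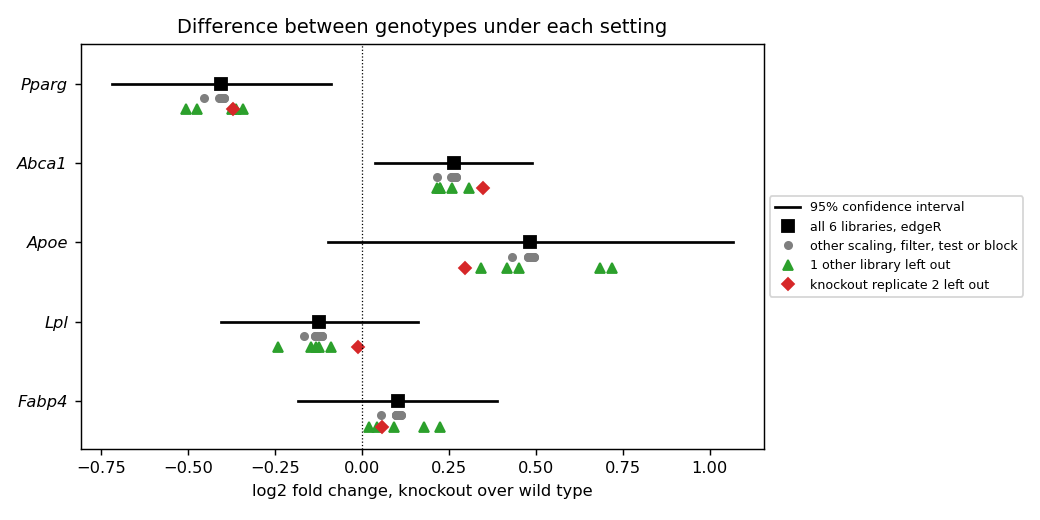
Log2 fold change, knockout over wild type, of each gene: black squares with bars give the edgeR fit and its 95% interval with all 6 libraries, grey circles other scalings, filters, tests and the replicate block, and triangles and diamonds fits with 1 library left out. The intervals of Pparg (-0.72 to -0.09) and Abca1 (0.04 to 0.49) leave out 0 before adjustment over all genes, and the Lpl value without knockout replicate 2 is -0.01.

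Mean Pparg, the receptor, was lower and mean Abca1, the efflux pump, was higher in knockout, though neither passed its test. The ratio of their counts within each library needs no scaling of libraries. It rests on the same counts, and Pparg alone already did not overlap between genotypes, so the ratio is no separate support. Such ratios depend on transcript length and are compared between libraries only. Per 1000 Abca1 counts there were 43.5, 38.2 and 35.3 Pparg counts in wild type replicates 1 to 3. In knockout replicates 1 to 3 there were 20.9, 26.6 and 26.4. The groups did not overlap, and the mean ratio was 1.59 times as high in wild type (39.0 ± 4.15 against 24.6 ± 3.22, SD, n = 3 each).

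The ratio of Abca1 to Lpl, efflux pump to lipase, was steadier than either gene alone. Per 1000 Lpl counts there were 117, 124 and 126 Abca1 counts in wild type replicates 1 to 3 and 147, 167 and 168 in knockout replicates 1 to 3. Here knockout replicate 2 lay with the other knockout libraries, whereas its Abca1 level alone lay among wild type. The mean ratio was 1.31 times as high in knockout (161 ± 11.9 against 122 ± 4.45, SD, n = 3 each).

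Pparg counts per 1000 Apoe counts were 0.539, 0.762 and 0.750 in wild type replicates 1 to 3 and 0.463, 0.273 and 0.386 in knockout replicates 1 to 3, again without overlap. All 10 pairs of the 5 genes were compared, and these 3 were the ones that did not overlap. Each had an exact two-sided permutation p of 0.1, the smallest possible, and 0.333 after Benjamini-Hochberg adjustment over the 10 pairs, so none passed. The 3 ratios are not separate results, as Pparg and Abca1 each enter 2 of them. Among all 67738980 pairs of the 11640 genes tested that had a count in every library, 15.5% had ratios that did not overlap between genotypes.

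Against Lpl and Fabp4, genes known as its targets, Pparg overlapped between genotypes, against Lpl only narrowly. Per 1000 Lpl counts there were 4.44 to 5.10 Pparg counts in wild type and 3.08 to 4.45 in knockout. Knockout replicate 2, at 4.449, lay just above wild type replicate 3, at 4.440, and knockout replicate 3 lay below it, at 4.437. Per 1000 Fabp4 counts there were 4.93 to 6.87 Pparg counts in wild type and 3.47 to 5.81 in knockout (exact permutation p = 0.2 for both, adjusted p = 0.333 over the 10 pairs). This adjusted p was the same as for the ratios without overlap, so these data do not set the pairs apart.

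**Figure D3:**
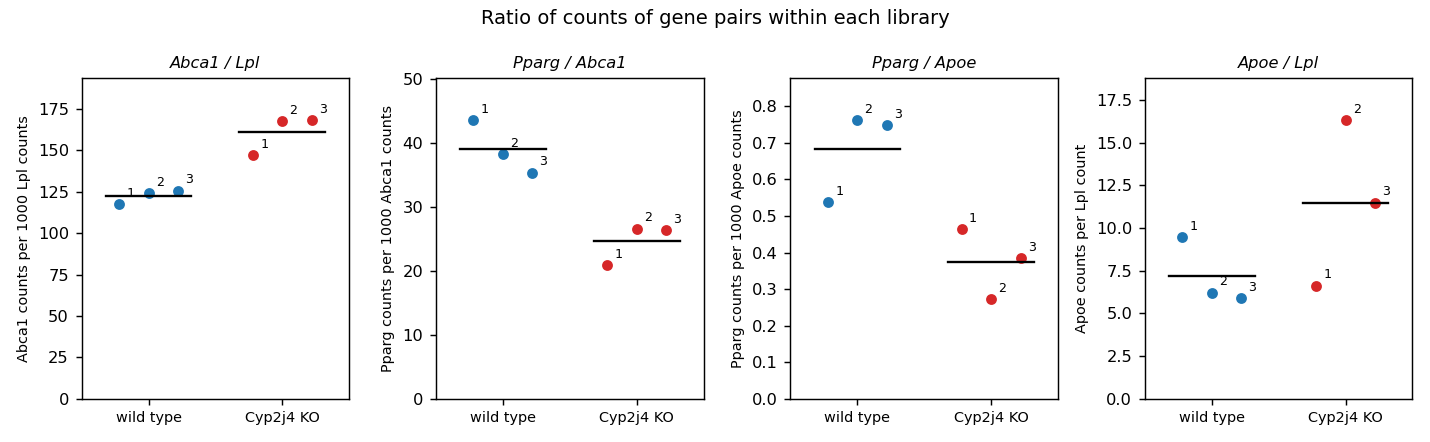
Ratio of the counts of 2 genes within each library, on linear axes from 0; points are libraries, numbers their replicates and lines group means. Abca1 to Lpl, Pparg to Abca1 and Pparg to Apoe do not overlap between genotypes, and Apoe to Lpl does.

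Within each genotype the library with the most Apoe had the least Abca1, both in CPM and with TMM-scaled library sizes. It also had the least Lpl in knockout under both scalings, but in wild type in CPM alone: with TMM scaling Lpl was at 1694, 1795 and 1658 in wild type replicates 1 to 3, lowest in replicate 3. In wild type the library with the most Apoe was replicate 1, with Apoe 0.36 above the mean of its genotype on the log2 scale, Abca1 at -0.13 and Lpl at -0.07 from theirs. In knockout it was replicate 2, with Apoe 0.28 above the mean, Abca1 at -0.26 and Lpl at -0.32. Apoe counts per Lpl count were 9.48 in wild type replicate 1 against 6.22 and 5.92 in replicates 2 and 3. In knockout replicates 1 to 3 the ratio was 6.64, 16.3 and 11.5, and its spread over the knockout libraries was wider than the gap between the group means of 7.21 and 11.5. Over genes of at least 2 mean log2 CPM, the departures of these same libraries from their genotype means correlated at 0.658 across genes, which are not independent replicates. This was the highest value among all combinations of a wild-type with a knockout library. The labels name no day, culture or batch that wild type replicate 1 and knockout replicate 2 had in common. What part the pair's likeness had in the levels of the 5 genes was not tested.

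**Figure D4:**
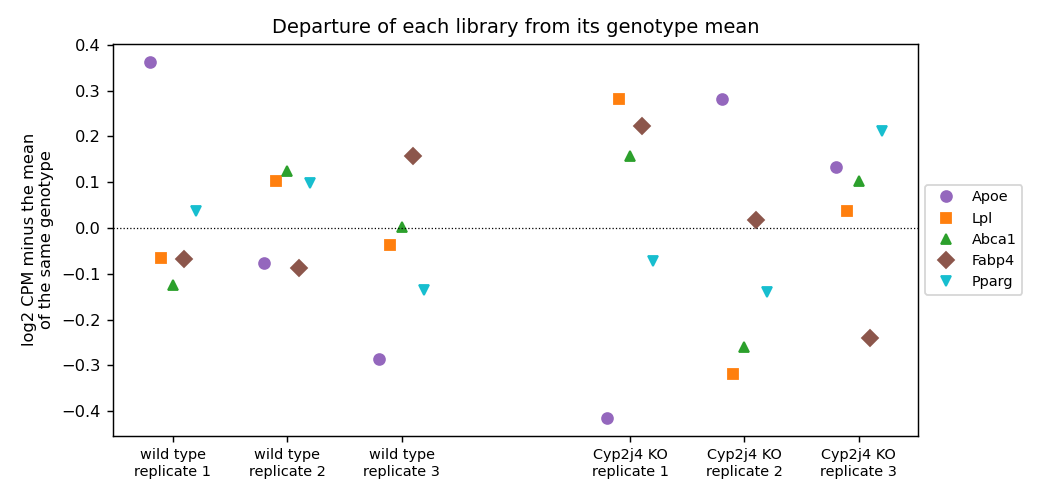
Departure of each library from the mean of its genotype, in log2 CPM, for the 5 genes; the dotted line is the genotype mean. In CPM, Apoe is high while Abca1 and Lpl are low in wild type replicate 1 and knockout replicate 2 (with TMM scaling wild-type Lpl is lowest in replicate 3), and knockout replicate 1 shows the opposite signs for these 3 genes, with Apoe at -0.41 and Lpl at 0.28.

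The genes most like each of the 5 over the 6 libraries were sought by Pearson's r of log2 CPM among 9214 others of at least 2 mean log2 CPM. Lpl had 108 genes at an r of at least 0.95, Apoe 81, Abca1 32, Pparg 10 and Fabp4 4. The closest were ENSRNOG00000011829 to Lpl (r = 0.997, Spearman's rho = 1) and ENSRNOG00000001225 to Apoe (r = 0.995, rho = 1). With 6 libraries that share 2 genotypes and with the highest value picked out of 9214, these correlations are descriptions only. No other gene of the 5 was the closest to any of them.

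**Figure D5:**
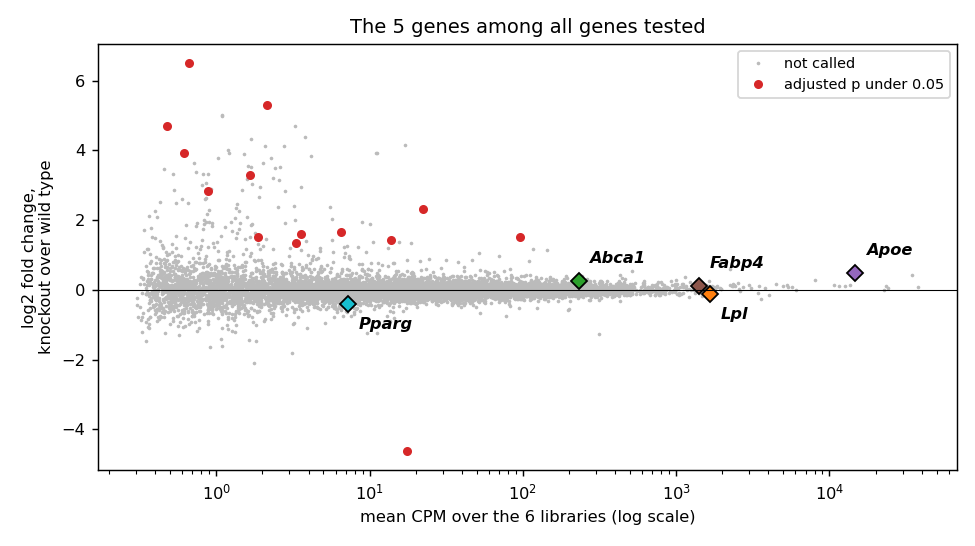
Log2 fold change, knockout over wild type, against mean CPM over the 6 libraries (log axis) for the 11645 genes tested; red points are the 14 called at an adjusted p under 0.05, and labelled diamonds are the 5 genes. All 5 diamonds lie within 0.5 of 0 on the log2 scale, and none is among the red points.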

How the data were processed

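RNA of cultured macrophages was measured in 6 libraries, 3 per genotype. The authors deposited raw read counts by gene in 1 table, made with TopHat2 and HTSeq on rat build rn4, per the submitters' processing notes. Their versions, the annotation release and the strand setting are not given in the sources used. The 5 HTSeq summary lines were left out, and 0 columns belonged to no sample. With edgeR 4.0.16 (R 4.3.3), low counts were removed by filterByExpr, libraries scaled by TMM, and genes tested over the whole table with glmQLFit and glmQLFTest, genotype being the only term, with Benjamini-Hochberg adjustment. Calls are at an adjusted p under 0.05. CPM is the count over the sum of gene rows, times 1000000. Log2 CPM for likeness used a prior count of 2. Each SE and 95% interval of a log2 fold change came from its F statistic. Scripts were tested on simulated data. At these depths 1 count is 0.0295 to 0.0463 CPM; reads carry no molecular identifiers, so Poisson intervals cover counting error only.

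The 5 genes, the gene lists and the alternatives were chosen with earlier results of these data known. The rule for named genes took the 5 and, for likeness, at most 2 IDs. Alternatives were other scalings, filters, DESeq2 1.42.0, limma-voom (limma 3.58.1), the replicate block and each library left out. Permutation tests on TMM-scaled CPM were added after seeing the data. Lists of PPAR-gamma partners, efflux genes and cell type markers were not used here, because no table pairs their symbols with Ensembl IDs. Promoter windows come from RefSeq, matched by symbol for 3 of the 5 genes; none of their coordinates is in rn4.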

Additional observations from a re-analysis of the deposited data

How the results depend on the processing

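The direction of all 5 genes was the same in each of 14 other fits (70 values), and 1 of these values was called. Leaving out 1 library gave Abca1 log2 fold changes from 0.22 to 0.35, the highest being the 1 called (without knockout replicate 2), and from 0 to 1 of the 5 genes called. The number of the 5 whose libraries did not overlap was 1, and from 1 to 3 with 1 library left out: Apoe joined Pparg without wild type replicate 1, Apoe and Lpl without knockout replicate 1, and Abca1 without knockout replicate 2. Over all genes tested the shares lying entirely higher and lower in knockout, 5.31% and 11.9% with all libraries, were then 7.26% and 21.1%, 8.41% and 24.3%, and 15.8% and 20.8%. Over all genes the 14 calls became 59 of 17135 genes when weakly counted genes were not filtered out. With DESeq2 there were 196 calls among 16319 genes. With 1 library left out there were between 1 (without wild type replicate 2 or 3) and 250 (without knockout replicate 2). The calls were 2, 4 and 6 without knockout replicate 3, wild type replicate 1 and knockout replicate 1. The cause of these changes was not tested. With the replicate block there were 27 calls and 0 of the 5 genes. The labels do not say that a replicate number pairs libraries, so the numbers were not taken to pair them. Residuals of same-numbered libraries correlated at -0.688, -0.323 and 0.246. With 3 libraries per genotype these values cannot decide whether the libraries were paired. Permutation tests on TMM-scaled CPM, added after seeing the data, changed no call, as 0.1 is the smallest p possible. Pparg, at 124 to 283 counts a library, was the gene of the 5 most limited by depth.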
